A study of Schizosaccharomyces pombe with 4 samples.

Results

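The genes of the cytosolic ribosome were followed in RNA sequencing libraries of the fission yeast Schizosaccharomyces pombe. They were taken by symbol, as genes named rpl or rps with a digit, plus the stalk genes rpp0, rpp101 to rpp103 and rpp201 to rpp203, and mitochondrial ribosomal protein genes were left out. The rule found 138 genes among the 7092 in the files, 83 for the large subunit and 55 for the small subunit. They formed 77 families of the same protein, of which 21 had 1 gene, 51 had 2 copies and 5 had 3 copies, so that 117 of the 138 genes had a paralogue.

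The study compared a strain labelled as a deletion of loz1 with wild type, with 2 libraries each. Loz1 is a zinc finger protein that represses target genes when zinc is plentiful, and the comparison asks which transcripts depend on it. Cells of both genotypes were in minimal medium limited for zinc to which zinc had been added back, and they were collected at an OD600 of about 6.0. No library without zinc was used here, and the labels describe neither the deleted stretch nor the mating type of the strains. Nothing in the labels says that the libraries of a genotype came from separate cultures, so the p-values cover the spread between these samples only, and that spread may be technical.

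Values are FPKM, fragment numbers divided by transcript length and library size. A gene was called changed at an adjusted p under 0.05 in limma, fitted to log2(FPKM + 1) of the 6315 genes that averaged 1 FPKM or more and had a transcript of 200 nt or more, and fold changes are log2 values of the labelled deletion over wild type with their SE and n = 2 per group. All 138 members passed that filter. The depth, estimated from the deposited bounds, lay between 1.57e+07 and 1.79e+07 fragments per library.

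The targeted gene had a higher level in the libraries labelled as its deletion. Its transcript, loz1 (SPAC25B8.19c), had 56.4 and 56.0 FPKM in the labelled deletion libraries, against 6.87 and 5.81 FPKM in wild type, and the groups did not overlap (2.97 ± 0.14, adjusted p = 0.00112). Reads inside a deleted stretch cannot be separated from the others in these files, and directions are given for the libraries as labelled. The 2 groups also differed in mating-type genes. All 7 markers of M cells were called lower, with a summed level of 159 and 151 FPKM in the labelled deletion libraries, against 5001 and 18460 FPKM in wild type, and the defining gene mat1-Mc had 0 and 0.137 FPKM in the labelled deletion libraries, against 159 and 257 FPKM in wild type. Of 4 markers of P cells, map2 and map3 were called higher (2.78 and 0.95). The others, map1 and sxa2, were not called, with values of -0.28 and -0.84 and groups that did not overlap. All 4 summed to 73.5 and 67.4 FPKM in the labelled deletion libraries, against 48.7 and 78.2 FPKM in wild type. Mating-type genes and genotype cannot be told apart in this design, and their part in the values of the ribosomal protein genes was not tested.

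Each ribosome holds 1 copy of most of its proteins, while the P1 and P2 proteins of the stalk are present in several copies. Yeasts encode many of these proteins with a pair of near-identical genes, and the genes are transcribed at high rates that growth conditions and stress signals set together. In fission yeast many ribosomal protein promoters carry a HomolD box, which takes the place of a TATA element, often with a HomolE box upstream of it. A ribosome in translation uses its stalk to recruit elongation factors, the small subunit to read mRNA and the large subunit to join amino acids.

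The promoter sequences show what the members share beyond their names. HomolD was searched as CAGTCACA and the core of HomolE as CCCTACCC, both on either strand, from 250 bases before to 50 bases after the gene start in RefSeq's annotation of the ASM294v3 assembly. The HomolD letters were found in 88 of the 138 members (63.8%), against 137 of 5113 promoters of protein-coding genes (2.68%), and the HomolE core was found in 49 members (35.5%), against 81 promoters (1.58%). The promoters of all protein-coding genes include those of the members, and outside the members 49 of 4975 promoters (0.985%) held HomolD and 32 (0.643%) the HomolE core. Both were found in 27 members. The first 7 letters of HomolD alone, a form chosen after the sequences were seen, were found in 126 members (91.3%), against 241 promoters of all protein-coding genes (4.71%), and in 38 of the 50 members that lacked the 8 letters. Matches lay at a median of 51 bases before the gene start for HomolD and 69 bases for the HomolE core (offsets of -51 and -69). Of 92 HomolD matches, 62 were on the strand of the gene, and of 50 HomolE core matches 23 were. Matches were counted per gene and are not all separate sites. The divergent neighbours rpl701 and rps1402 share their HomolD matches, as do rpp203 and rps1502, and rpl35 and rpl902. The 2 motifs share no letters of a match in the windows printed here.

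Windows from 90 to 21 bases before the start are shown for the families whose copies diverged most between the genotypes and for 2 of the called members, because these carry the results on paralogues given later. Each reads 5′ to 3′ along the gene's strand, with CAGTCAC and CCCTACCC, or their reverse complements, in capitals. In the rpl34 family, which encodes eL34 of the large subunit, rpl3401 at I:4093819-4093888 on the minus strand has the complete HomolD box and rpl3402 at III:1321258-1321327 on the plus strand has its first 7 letters followed by g.
rpl3401: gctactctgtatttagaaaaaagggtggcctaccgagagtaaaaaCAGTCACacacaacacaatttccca
rpl3402: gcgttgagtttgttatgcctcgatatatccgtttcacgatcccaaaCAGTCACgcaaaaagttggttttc

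The rpl1 family encodes uL1, the protein of the mobile stalk beside the exit site for tRNA. Both copies carry HomolD, and rpl101 at III:612600-612669 on the minus strand also carries the HomolE core, which is not in the window of rpl102 at II:3060459-3060528 on the plus strand. The rpl30 family encodes eL30. It shows the same arrangement, with both boxes in rpl3001 at I:1974104-1974173 on the minus strand and HomolD alone in rpl3002 at I:5095900-5095969 on the minus strand.
rpl101: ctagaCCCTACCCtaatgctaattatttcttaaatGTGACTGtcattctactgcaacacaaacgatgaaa
rpl102: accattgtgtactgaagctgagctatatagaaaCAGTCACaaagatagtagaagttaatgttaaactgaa
rpl3001: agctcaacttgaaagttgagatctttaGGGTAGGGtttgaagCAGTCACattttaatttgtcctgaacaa
rpl3002: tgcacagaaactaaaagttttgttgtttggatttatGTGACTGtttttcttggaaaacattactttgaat

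The 3 genes of P2, an acidic protein of the stalk, differ in their boxes. HomolD is in rpp201 at II:3643071-3643140 on the plus strand, the HomolE core without HomolD is in rpp202 at II:2128488-2128557 on the minus strand, and rpp203 at I:3868999-3869068 on the plus strand has HomolD and a further copy of its first 7 letters. The HomolD of rpp203 is also the one counted for its divergent neighbour rps1502. In the deposited annotation the transcript of rps1502 (I, 3868310 to 3869076, minus strand) covers this window. In RefSeq's annotation the shared HomolD lies before the start of rps1502 (offset of -44).
rpp201: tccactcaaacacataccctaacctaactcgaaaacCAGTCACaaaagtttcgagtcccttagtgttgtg
rpp202: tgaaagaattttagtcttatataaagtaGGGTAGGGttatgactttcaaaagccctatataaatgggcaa
rpp203: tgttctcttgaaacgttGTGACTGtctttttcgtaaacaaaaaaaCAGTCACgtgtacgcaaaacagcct

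Among called members of the small subunit, rps1801 at II:3620484-3620553 on the minus strand has the 7 letters without the eighth, and rps2202 at I:1512411-1512480 on the minus strand has both boxes. The gene rps1801 encodes uS13 of the subunit's head and rps2202 encodes uS8, which binds ribosomal RNA early in assembly.
rps1801: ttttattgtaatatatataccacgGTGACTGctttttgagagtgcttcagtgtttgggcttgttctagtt
rps2202: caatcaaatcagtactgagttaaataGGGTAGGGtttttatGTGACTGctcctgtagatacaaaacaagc

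Ribosomal protein RNA was less abundant in the labelled deletion than in wild type, by a similar factor for both subunits. The 138 genes summed to 231411 and 243436 FPKM in the labelled deletion libraries, against 307547 and 383422 FPKM in wild type, and the groups did not overlap. The mean in the labelled deletion was 68.7% of that in wild type. Large subunit genes summed to 134884 and 141704 FPKM in the labelled deletion libraries, against 178283 and 223223 FPKM in wild type (68.9%). Small subunit genes summed to 96527 and 101731 FPKM in the labelled deletion libraries, against 129264 and 160199 FPKM in wild type (68.5%). The ratio of large to small subunit sums was 1.40 and 1.39 in the labelled deletion libraries and 1.38 and 1.39 in wild type, so the balance of the subunits moved by less than 0.02. As a share of all FPKM, ribosomal protein genes made up 22.1% and 23.9% in the labelled deletion libraries, against 25.9% and 29.1% in wild type. Weighted by transcript length, which comes nearer to a share of reads, they made up 12.3% and 13.0% in the labelled deletion libraries, against 15.9% and 20.1% in wild type. In RNA of whole cultures, fewer cells of a type and less RNA per cell cannot be told apart.

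**Figure D1:**
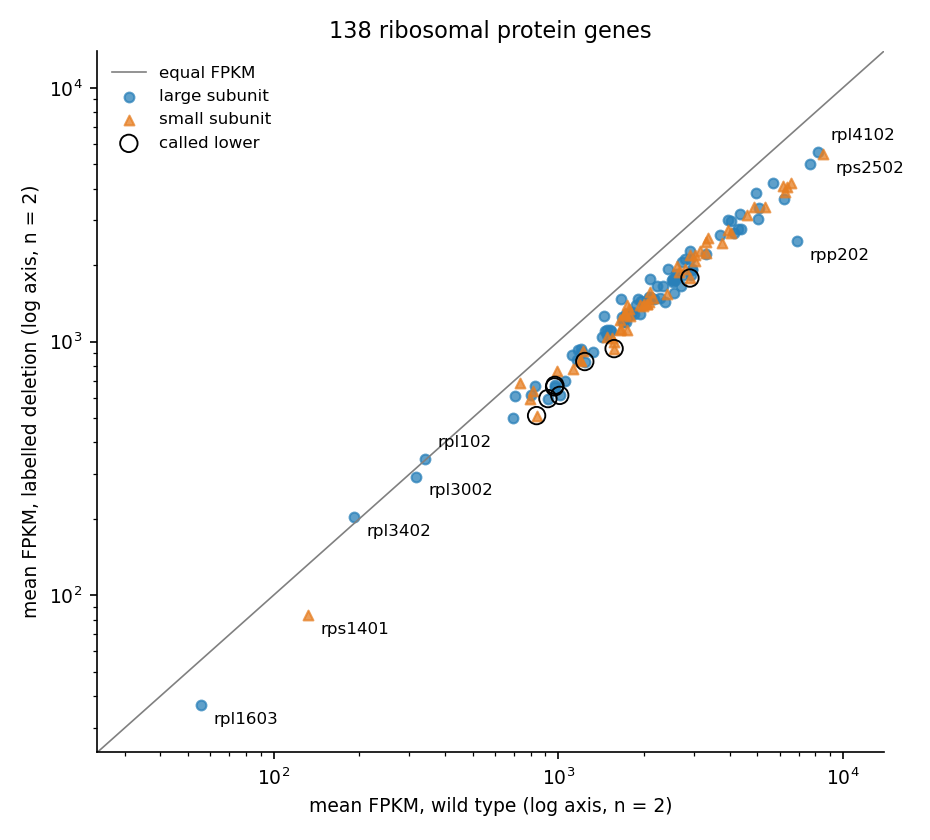
Mean FPKM of each ribosomal protein gene in the labelled deletion (vertical, log axis) against wild type (horizontal, log axis), n = 2 libraries each, with circles for the large and triangles for the small subunit, rings around called members and a line at equal FPKM. Of the 138 points, 136 lie below the line and 2, rpl3402 and rpl102, lie just above it, and both fall below it after median-ratio rescaling.

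Nearly all members shared the direction, and few passed the test alone. In limma 8 of 138 members (5.8%) were called lower and none higher (0 also at an unadjusted p under 0.05), beside 4.37% of all tested genes called lower and 11.9% called higher, so the share called lower was near that of all genes. At an unadjusted p under 0.05, 98 members (71.0%) were lower, beside 10.4% of all tested genes. In 133 members (96.4%) every labelled deletion library lay below every wild-type library, beside 21.6% of all tested genes, and no member lay wholly above, beside 44.7% of all tested genes. The median log2 fold change of the members was -0.50, with quartiles of -0.57 and -0.41, while all tested genes had a median of 0.13. As deposited 136 members had a value below 0 and 2 above, which became 138 and 0 after median-ratio rescaling, 129 and 9 under TPM scaling and 126 and 12 after quantile normalization. At the median, a member stood at 70.3% of its wild-type mean in the labelled deletion. The large subunit had a median of -0.48 with 5 of 83 genes called lower, and the small subunit a median of -0.52 with 3 of 55.

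The size of the difference rested on which wild-type library was used. Members were higher in wild-type replicate 2 than in replicate 1 in 135 of 138 cases, with a median difference of 0.29 in log2 units, where the median of all tested genes was -0.05. In the labelled deletion, replicate 2 was higher than replicate 1 in 119 of 138 members, with a median difference of 0.08, where the median of all tested genes was -0.04. Both labelled deletion libraries were below wild-type replicate 1, the closer one, in 134 of 138 members, which was true of 35.5% of all tested genes. Without wild-type replicate 2 the median log2 fold change was -0.35, and without wild-type replicate 1 it was -0.63. The calls in such fits, 71 lower and 1 (rps1401) higher without wild-type replicate 2 and 132 lower without wild-type replicate 1, set the labelled deletion against a single library, and among samples their spread came from the close labelled deletion pair alone, with the lone library assumed to vary like that pair. With labelled deletion replicate 1 or 2 left out, the spread came from the wild-type pair and no member was called. Rescaling by the median ratio, which moves the median of all tested genes by over 0.1 to 0.00, gave a member median of -0.64 with 6 called lower, and TPM scaling, which sets every library to the same sum, gave -0.22 with 4 called lower while all tested genes stood at 0.39. Relative to all tested genes the 2 rescalings gave -0.64 and -0.61, beside -0.63 as deposited. Quantile normalization, which forces the same distribution on every library, gave -0.18 with 2 called lower, or -0.16 relative to all tested genes. Without wild-type replicate 2 the relative value was -0.44, and without wild-type replicate 1 it was -0.81.

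**Figure D2:**
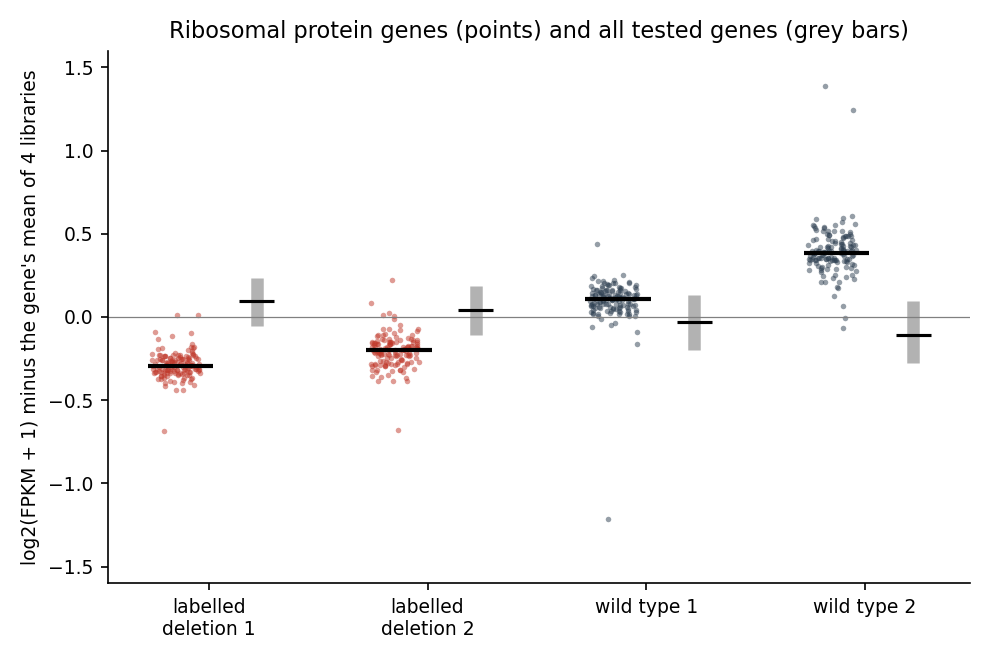
Each point is 1 of 138 ribosomal protein genes, plotted as its log2(FPKM + 1) minus its own mean over the 4 libraries, with a black line at the median. Grey bars span the quartiles of all 6315 tested genes. The median of the members is below 0 in both labelled deletion libraries, above 0 in wild-type replicate 1 and higher still in wild-type replicate 2, with a median difference of 0.29 over replicate 1 (log2).

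The stalk of the large subunit held 3 of the 8 called members, and the most negative log2 fold change, of rpp202, which was not called. Among all members 5.8% were called lower, beside 4.37% of all tested genes. Of the 8 calls, 0 were kept with no filter on low values and 2 with no trend in the prior. Quantile normalization and a replicate block each kept 1. The gene rpp0 (SPCC18.14c, chromosome III, 1980536 to 1983006), which encodes uL10, the base to which P1 and P2 bind, had 805 and 862 FPKM in the labelled deletion libraries, against 1188 and 1292 FPKM in wild type (-0.57 ± 0.12, adjusted p = 0.0430). The P1 gene rpp101 (SPAC644.15, I, 2700391 to 2701213) had 599.5 and 592 FPKM in the labelled deletion libraries, against 851 and 989 FPKM in wild type (-0.62 ± 0.13, adjusted p = 0.0372). The P2 gene rpp203 (SPAC1071.08, I, 3869082 to 3869610) had 624.5 and 602 FPKM in the labelled deletion libraries, against 904 and 1121 FPKM in wild type (-0.71 ± 0.15, adjusted p = 0.0381). In all 3 the labelled deletion libraries lay together and below both wild-type libraries. A protein-coding transcript on the other strand covers rpp203 completely, with 29.1 and 24.5 FPKM in the labelled deletion libraries, against 22.7 and 23.6 FPKM in wild type. The P2 gene rpp202 had 2492 and 2498 FPKM in the labelled deletion libraries, against 4343 and 9499 FPKM in wild type (-1.36 ± 0.40, adjusted p = 0.0794). Its wild-type libraries differed from each other by more than the lower one differed from the labelled deletion, and its log2 fold change was -0.80 without wild-type replicate 2. The median over the 7 stalk genes was -0.62 and all 7 were in the lower direction, also after each rescaling.

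Among the other large subunit proteins, rpl1002 and rpl702 were called. The gene rpl1002 (SPAP7G5.05, I, 3744043 to 3744906) encodes uL16, which joins the large subunit late in its maturation. It had 644.5 and 699 FPKM in the labelled deletion libraries, against 917 and 1031 FPKM in wild type (-0.53 ± 0.13, adjusted p = 0.0497), and a non-coding transcript of under 10 FPKM in every library covers it on the other strand. Stretches of 100 nt found elsewhere in the genome begin at 21.8% of its positions, so reads could be split with its near-identical copy rpl1001. The gene rpl702 (SPAC3H5.07, I, 3429415 to 3430813), a copy for the protein L7, had 673 and 652 FPKM in the labelled deletion libraries, against 922 and 1019.8 FPKM in wild type (-0.55 ± 0.12, adjusted p = 0.0418). Both genes were called although their fold changes were close to the median of the members, and their replicates lay close together. Their wild-type means of 974 and 971 FPKM were below the member median of 2069 FPKM. The SE depends on level in this fit.

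In the small subunit, rps1801, rps2202 and rps2401 were called. The uS13 gene rps1801 (SPBC16D10.11c, II, 3619778 to 3620469) had 913 and 962 FPKM in the labelled deletion libraries, against 1442 and 1701 FPKM in wild type (-0.74 ± 0.14, adjusted p = 0.0338), the smallest p among the members. The uS8 gene rps2202 (SPAC5D6.01, I, 1511592 to 1512406) had 516 and 505 FPKM in the labelled deletion libraries, against 746.5 and 933 FPKM in wild type (-0.71 ± 0.14, adjusted p = 0.0379). The eS24 gene rps2401 (SPAC17G6.06, I, 3599034 to 3599783) had 1784 and 1775 FPKM in the labelled deletion libraries, against 2695 and 3111 FPKM in wild type (-0.70 ± 0.16, adjusted p = 0.0463). The groups did not overlap in any of the 3. Their paralogues rps1802, rps2201 and rps2402 had log2 fold changes of -0.62, -0.65 and -0.52 and were not called, and the difference between copies was not part of that test.

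The 6 members with the highest levels did not pass the test. In the order below, wild-type replicate 2 exceeded replicate 1 by 0.46, 0.24, 0.32, 0.44, 0.18 and 0.22 in log2 units. The median of all members was 0.29, so their wild-type libraries were not all unusually far apart. The limma prior has an intensity trend, so the SE also depends on level. The SE of these 6 lay between 0.21 and 0.27, and those of the 8 called members between 0.12 and 0.16. The eS25 gene rps2502, whose protein sits in the head of the small subunit, had 5209 and 5772.5 FPKM in the labelled deletion libraries, against 7187.5 and 9887.5 FPKM in wild type (-0.62 ± 0.27, adjusted p = 0.167). The eL41 gene rpl4102, for a protein of 25 residues, had 5723 and 5409 FPKM in the labelled deletion libraries, against 7519 and 8866 FPKM in wild type (-0.55 ± 0.23, adjusted p = 0.159). The eL29 gene rpl29 had 4959 and 5074 FPKM in the labelled deletion libraries, against 6846 and 8517 FPKM in wild type (-0.61 ± 0.23, adjusted p = 0.136). The groups of these 3 were apart, for rps2502 by less than the gap between the wild-type libraries, and after quantile normalization the fold changes turned to 0.26, 0.33 and 0.27. Next in level came rps21, rps2801 and rps29, for eS21, eS28 and the zinc-binding protein uS14, with means of 4203, 4084 and 4051 FPKM in the labelled deletion and 6574, 6174 and 6377 FPKM in wild type, and after quantile normalization the fold changes of rps21 and rps2801 were 0.04 and 0.08. The families with the highest sums were those of P2, eL43, eL41 and eS25. The eL43 copies rpl4301 and rpl4302, which encode another zinc-binding protein, had log2 fold changes of -0.71 and -0.58 and adjusted p of 0.113 and 0.171.

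At the low end stood copies with small levels in every library. The uL13 gene rpl1603 had 37.3 and 36.6 FPKM in the labelled deletion libraries, against 61.5 and 49.4 FPKM in wild type (-0.56 ± 0.14, adjusted p = 0.0539). Its annotated transcript of 2668 nt is covered to 95.3% by apl1 on the other strand, with 51.6 and 53.2 FPKM in the labelled deletion libraries, against 50.7 and 42.3 FPKM in wild type. The uS11 gene rps1401 had 65.5 and 101 FPKM in the labelled deletion libraries, against 36.8 and 228 FPKM in wild type, so the groups overlapped (-0.18 ± 0.85, adjusted p = 0.899). It is covered completely by aar2, with 74.6 and 74.6 FPKM in the labelled deletion libraries, against 77.5 and 87.2 FPKM in wild type, and its paralogue rps1402, which encodes the same protein, had 1347 and 1471.5 FPKM in the labelled deletion libraries, against 1798 and 2208 FPKM in wild type. As the strand setting is not given in the sources used here, reads of such genes and of their partners cannot be told apart.

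Most paralogues had similar fold changes. Among 66 pairs of copies, the log2 ratio between copies differed between the labelled deletion and wild type by a median of 0.11 in size, and 30 pairs differed by under 0.1. The ratios of 43 pairs (65.2%) did not overlap between the groups, beside 66.4% of all pairs of tested genes, so that share was near the background. In 49 of the 51 families with 2 copies the same copy was higher in all 4 libraries. The copies differed 2-fold or more in mean level in 25 of the 66 pairs and 4-fold or more in 8. In 31 of the 51 families the copy with the lower level had the higher log2 fold change, which for 2 of these copies was above 0 as deposited and below 0 after median-ratio rescaling. Copies encoded identical proteins in 16 pairs, among which rps1401 and rps1402 differed by 0.32 with overlapping groups, and the protein identity of the rest went down to 77.9%.

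**Figure D3:**
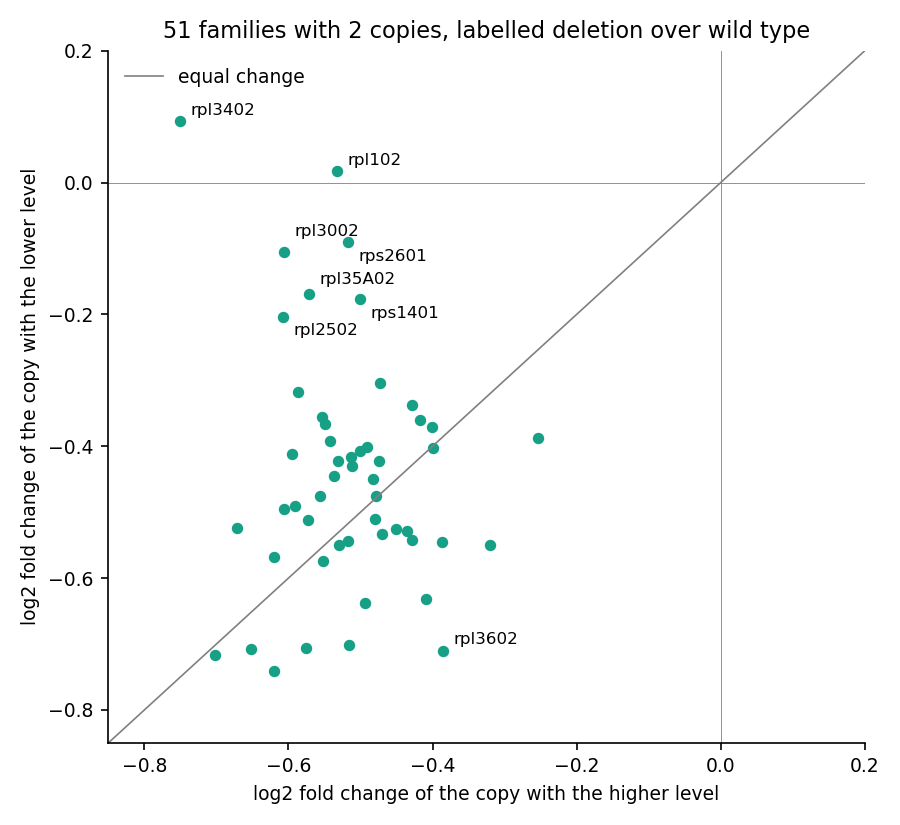
Log2 fold change, labelled deletion over wild type, of the copy with the lower mean level (vertical) against that of the copy with the higher mean level (horizontal) in the 51 families with 2 copies, with a line at equal change. Names mark the lower-level copy where the difference exceeds 0.3, and 7 of those 8 points lie above the line, led by rpl3402, whose sign turns after median-ratio rescaling.

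In the families of eL34, uL1 and eL30 the deposited values of the high copy were lower in the labelled deletion and those of the low copy were close to wild type. In the eL34 family rpl3401 had 3484 and 3813.5 FPKM in the labelled deletion libraries, against 5282 and 7119 FPKM in wild type (-0.75 ± 0.24, adjusted p = 0.0930). Its paralogue rpl3402 had 198 and 208 FPKM in the labelled deletion libraries, against 176 and 206 FPKM in wild type (0.09 ± 0.11, adjusted p = 0.590), and these groups overlapped. The value of rpl3402 was -0.05 after median-ratio rescaling and 0.37 under TPM scaling. The share of rpl3402 in the family was 5.38% and 5.18% in the labelled deletion libraries, against 3.22% and 2.81% in wild type, and the log2 ratio of rpl3401 over rpl3402 differed by -0.84. The proteins are 95.5% identical, and no stretch of 100 nt of either transcript occurs elsewhere in the genome. The complete HomolD box of rpl3401 and the 7 letters of rpl3402 are those printed above.

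In the uL1 family the gene rpl101 had 1718 and 1858 FPKM in the labelled deletion libraries, against 2355 and 2839 FPKM in wild type (-0.53 ± 0.17, adjusted p = 0.0953). Its paralogue rpl102 had 344 and 344 FPKM in the labelled deletion libraries, against 354 and 326 FPKM in wild type (0.02 ± 0.10, adjusted p = 0.913), a value that was -0.12 after median-ratio rescaling and 0.29 under TPM scaling. A non-coding transcript on the other strand covers 68.5% of rpl102. That transcript had 95.8 and 99.9 FPKM in the labelled deletion libraries, against 112 and 91.9 FPKM in wild type, and its reads cannot be told apart from those of rpl102. The share of rpl102 in the family was 16.7% and 15.6% in the labelled deletion libraries, against 13.1% and 10.3% in wild type, and the groups of shares did not overlap. For eL30, rpl3001 had 1909 and 1961 FPKM in the labelled deletion libraries, against 2627 and 3300.4 FPKM in wild type (-0.61 ± 0.18, adjusted p = 0.0830). Its paralogue rpl3002 had 285 and 301.5 FPKM in the labelled deletion libraries, against 329 and 303 FPKM in wild type (-0.11 ± 0.10, adjusted p = 0.483), and its value was -0.25 after median-ratio rescaling and 0.17 under TPM scaling. The share of rpl3002 was 13.0% and 13.3% in the labelled deletion libraries, against 11.1% and 8.41% in wild type. The copies of eL30 are the least alike of these 3 families, with 79.5% identical residues.

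**Figure D4:**
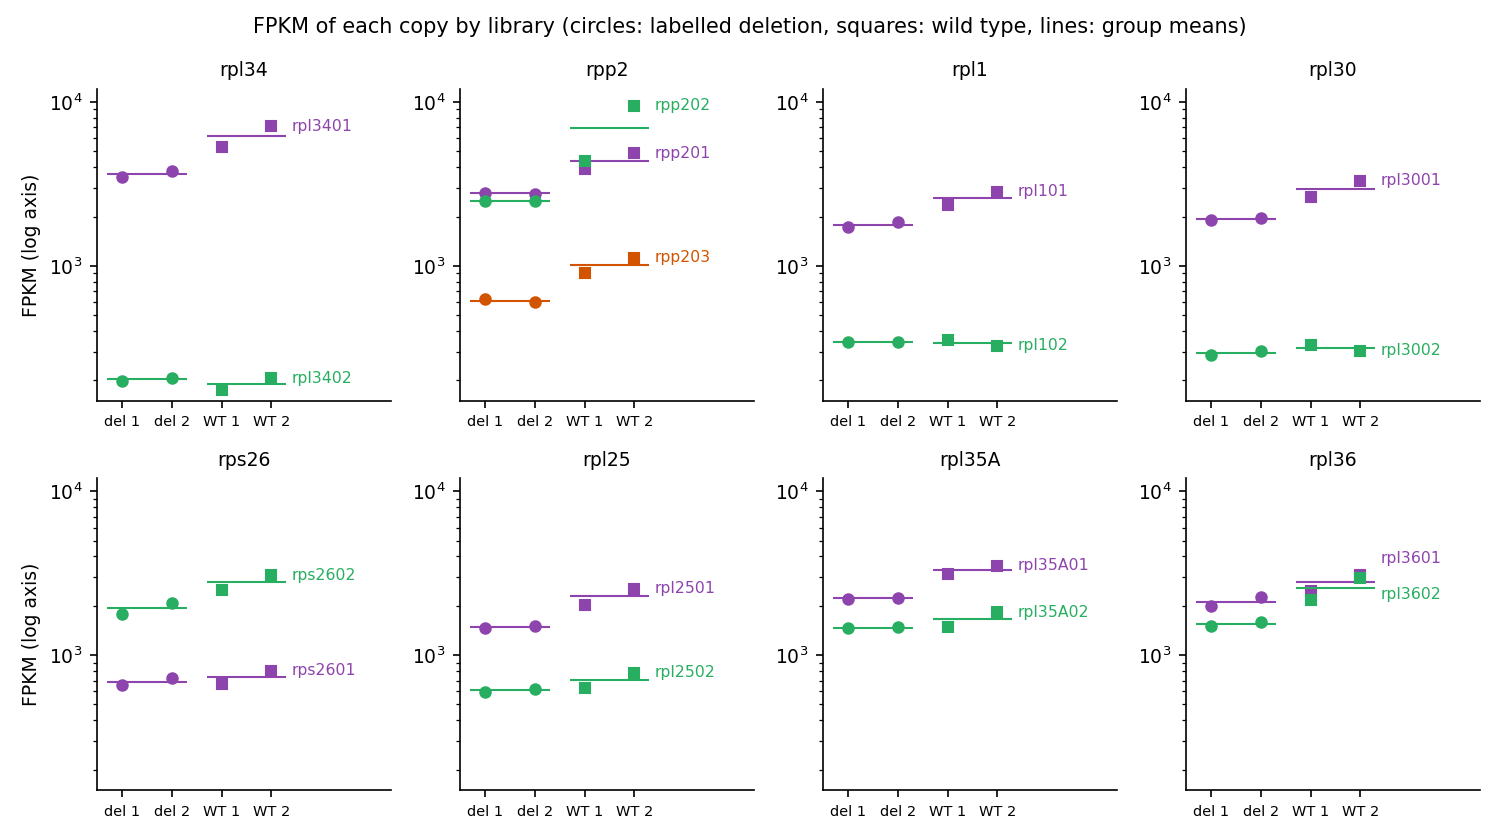
FPKM (log axis) of every copy in the 8 families with the largest difference in log2 fold change between copies, by library, with circles for the labelled deletion, squares for wild type and lines at the means of 2 libraries. In the rpl34, rpl1 and rpl30 panels the upper copy is lower in the labelled deletion, with log2 fold changes of -0.75, -0.53 and -0.61, while the lower copy as deposited differs from wild type by at most 0.11 (log2). Across rescalings its value lay between -0.05 and 0.37 for rpl3402, -0.12 and 0.29 for rpl102, and -0.25 and 0.17 for rpl3002.

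In 3 further families the lower copy also had the log2 fold change closer to 0. For eS26, which lies at the channel where mRNA leaves the small subunit, rps2602 had a log2 fold change of -0.52 ± 0.19 and rps2601 of -0.09 ± 0.14, and the share of rps2601 was 26.8% and 25.7% in the labelled deletion libraries, against 21.1% and 20.8% in wild type. Both genes are covered completely by a transcript on the other strand, of under 25 FPKM for rps2602 and 12.2 FPKM for rps2601. For uL23, a protein at the exit of the peptide tunnel, rpl2501 had -0.61 ± 0.17 and rpl2502 -0.20 ± 0.14, and the share of rpl2502 was 28.9% and 29.3% in the labelled deletion libraries, against 23.9% and 23.4% in wild type. On the other strand leu3 covers 10.2% of rpl2502 and was itself called higher (0.61, adjusted p = 0.0266 in limma). It had 410 and 460 FPKM in the labelled deletion libraries, against 289 and 280 FPKM in wild type. For eL33 the genes rpl35A01 and rpl35A02 had -0.57 ± 0.16 and -0.17 ± 0.16, and the share of rpl35A02 was 39.9% and 39.8% in the labelled deletion libraries, against 32.5% and 34.3% in wild type. The shares of these 3 families lay within 2 percentage points of each other inside a group, and the groups did not overlap. The families were chosen for the difference between their copies in these libraries. Among all pairs of tested genes, the ratios of 66.4% did not overlap. None of the 6 ribosomal protein genes of these families was called, and under TPM scaling, which leaves ratios between copies as they are, rps2601, rpl2502 and rpl35A02 had fold changes of 0.18, 0.07 and 0.10. After quantile normalization rps2601 and rpl35A02 were also above 0, with 0.05 and 0.15.

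In the eL36 family the lower copy had the more negative value, and in the P2 family the order of copies differed between the groups. For eL36, rpl3601 had 1993.5 and 2249 FPKM in the labelled deletion libraries, against 2474 and 3094 FPKM in wild type (-0.39 ± 0.19), and the lower copy rpl3602 had 1512 and 1585 FPKM in the labelled deletion libraries, against 2184 and 2938 FPKM in wild type (-0.71 ± 0.20). The share of rpl3602 was 43.1% and 41.3% in the labelled deletion libraries, against 46.9% and 48.7% in wild type. For P2, rpp202 gave 42.3% and 42.6% of the family in the labelled deletion libraries, against 47.6% and 61.4% in wild type. The gene rpp201 gave 47.1% and 47.1% in the labelled deletion libraries, against 42.5% and 31.4% in wild type, and so was the highest copy in the labelled deletion and not in wild type. The P2 proteins are 77.9% to 78.8% identical between rpp202 and the others.

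The members' promoters, introns and positions were set beside their fold changes. Members with the 8 HomolD letters had a median log2 fold change of -0.50 and those without of -0.49. The 49 members with the HomolE core had a median of -0.53. The 28 with neither the 8 HomolD letters nor the HomolE core had -0.43. These 28 are not a group without HomolD, as they include members with its first 7 letters, such as rpl3402. Of the 50 members without the 8 letters, 38 held those 7. The 75 members with an intron in RefSeq had a median of -0.54 with 7 called, and the 63 without an intron -0.45 with 1 called. Among all tested genes 4.37% were called lower, and the difference between these 2 counts was not tested. Members on chromosomes I, II and III, which held 60, 51 and 27 of them, had medians of -0.51, -0.50 and -0.48. In 8 cases 2 members were neighbours among protein-coding genes.

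Shared sequence touched few members. Stretches of 100 nt that occur again elsewhere in the genome were found in 10 members, and they began at more than 50% of the positions of rpl1201 (84.1%), rpl1202 (68.0%), rpl301 (65.3%) and rpl302 (54.5%), for which the split of reads between copies is uncertain. Without these 4, the count called lower was 8 and the median -0.51. Other annotated transcripts covered at least 50% of the length of 28 members, 22 of them completely. Without those 28 the count called lower was 6 and the median -0.49.

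Genes that are part of the ribosome but named otherwise had lower values in the labelled deletion too. The ubiquitin fusion genes ubi1, ubi2, ubi3 and ubi5, which encode eL40 or eS31 joined to ubiquitin, and cpc2, the RACK1 gene, had a median of -0.42, and in all 5 the labelled deletion libraries lay below wild type, though 1 was higher after quantile normalization. One of the 5, ubi2, was called, with 799 and 826 FPKM in the labelled deletion libraries, against 1115 and 1285 FPKM in wild type (-0.56 ± 0.13, adjusted p = 0.0492). Among all tested genes 4.37% were called lower, and in 21.6% the labelled deletion libraries lay below wild type. Of 43 mitochondrial ribosomal protein genes none was called by limma in either direction (3 higher and 3 lower at an unadjusted p under 0.05). Their median was -0.04, which became -0.18 after median-ratio rescaling and -0.22 after quantile normalization, with 36 of 43 lower in each, and 0.23 under TPM scaling, with 38 higher.

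Among genes that build ribosomes the calls were in the other direction. That direction was also the more frequent one among all tested genes, with 11.9% called higher, 4.37% called lower and a median of 0.13. Of 49 tested genes for assembly of the small subunit, 10 were called higher and none lower (0 also at an unadjusted p under 0.05), with a median of 0.29. They included pno1, for a protein of late pre-40S particles, with 66.0 and 66.0 FPKM in the labelled deletion libraries, against 44.8 and 43.2 FPKM in wild type (0.57 ± 0.09, adjusted p = 0.0229). The others named by the smallest p were utp18 and rrp9, for parts of the U3 particle that cuts early pre-rRNA, and rcl1, with log2 fold changes of 0.63, 0.68 and 0.55. Of 50 genes for assembly of the large subunit, 15 were called higher and none lower (0 also at an unadjusted p under 0.05), with a median of 0.37. The helicase gene dbp3 had 26.7 and 25.8 FPKM in the labelled deletion libraries, against 12.3 and 12.2 FPKM in wild type (1.04 ± 0.12, adjusted p = 0.0105). The genes wdr74, arx1 and nop12 had 0.72, 0.86 and 0.67. Rescaling by the median ratio left 4 and 7 genes called higher in the 2 lists, quantile normalization 0 and 7, and TPM scaling 24 and 30. Both medians stayed above 0 under each of these. With labelled deletion replicate 1 or 2 left out neither list had a call. Without wild-type replicate 1 or 2 the counts called higher were 29 or 17 for the small subunit and 35 or 24 for the large subunit, against 1 wild-type library and with the spread of the labelled deletion pair alone.

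Translation factors and the transcription machinery lay between. Their counts read against 11.9% of all tested genes called higher and 4.37% called lower. Of 16 elongation and termination genes 1 was called higher (zuo1, a ribosome-bound chaperone, 0.44 ± 0.09, adjusted p = 0.0350) and the median was -0.14, which lay between -0.28 and 0.14 across rescalings. Of 23 initiation genes 1 was called higher (tif223, for a subunit of eIF2B, 0.53 ± 0.12, adjusted p = 0.0468), with a median of 0.12 that lay between -0.02 and 0.39 across rescalings. Of 15 genes for RNA polymerase I and its factors, rpa34 and ker1 were called higher, with 0.80 and 0.74, and the initiation factor gene rrn6 lower, with -0.65 ± 0.11 (adjusted p = 0.0256). Of 4 genes for pseudouridylation particles, gar1 was called higher (0.47). Of 22 genes listed as regulators of ribosome production, maf1, a repressor of RNA polymerase III, was called higher, with 41.4 and 43.7 FPKM in the labelled deletion libraries, against 25.1 and 17.4 FPKM in wild type (0.99 ± 0.19, adjusted p = 0.0339).

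Of 29 genes that stress induces, 4 were called higher and 1 lower, with a median of 0.06 that lay between -0.08 and 0.33 across rescalings. The sulfiredoxin gene srx1 had 107 and 96.2 FPKM in the labelled deletion libraries, against 31.6 and 23.2 FPKM in wild type (1.87 ± 0.17, adjusted p = 0.00525), and the small heat shock gene hsp16 fell to 4553 and 4879 FPKM in the labelled deletion libraries, against 10167 and 10250.5 FPKM in wild type (-1.11 ± 0.22, adjusted p = 0.0362). The gene gcd1, which RefSeq names as a glucose-6-phosphate 1-dehydrogenase, and the phosphatase gene pyp2 were called higher, with fold changes of 6.67 and 1.63 on the log2 scale. The shares called in each list read against 11.9% of all tested genes called higher and 4.37% called lower.

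**Figure D5:**
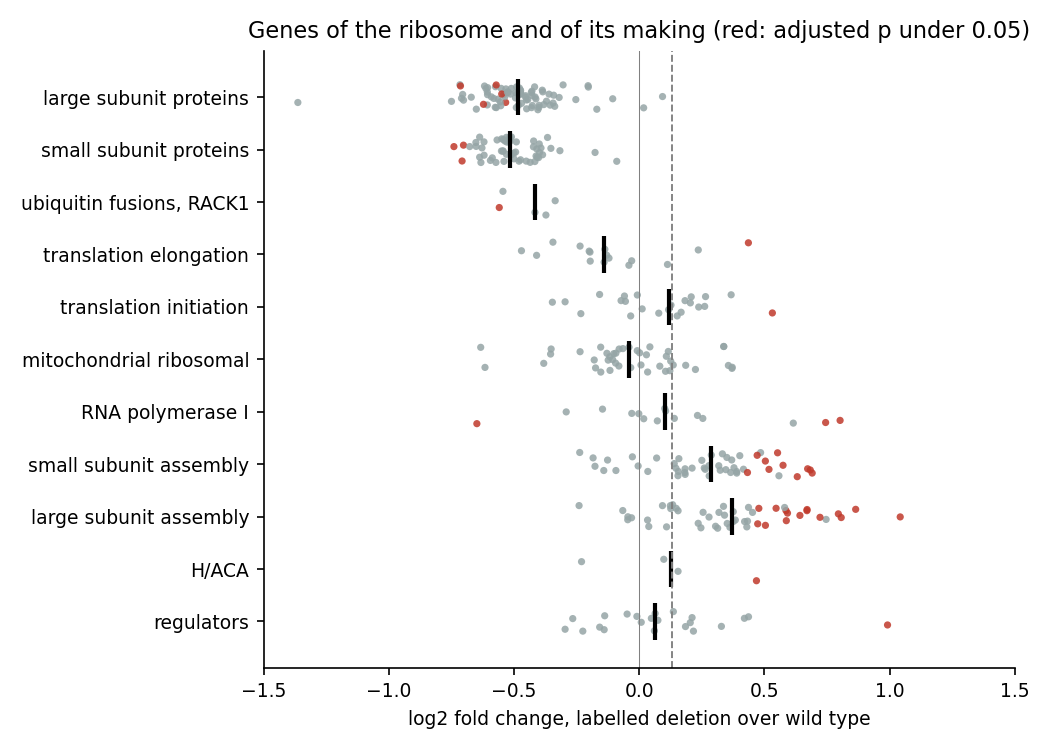
Log2 fold change of each tested gene, labelled deletion over wild type, by group, with red for an adjusted p under 0.05, a black bar at each median and a dashed line at 0.13, the median of all tested genes. Large and small subunit proteins lie at -0.48 and -0.52, and the assembly genes of the small and large subunit at 0.29 and 0.37.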

How the data were processed

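Per the labels' protocols, total RNA was sequenced by a company with standard Illumina methods. The authors deposited 1 transcript list per library with FPKM values and their bounds, made with Cufflinks per the file headers. The genome build was ASM294v2 and the tools were HISAT2, SAMtools, Cufflinks and Cuffdiff, per the submitters' processing notes. Not given in the sources used here are versions, the strand setting and how reads with several matches were treated. A score that the authors deposited for each transcript was left unused. Files give no read totals, so depth was estimated from the width of the FPKM bounds of isolated transcripts of at least 1500 nt, which covers counting error only.

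FPKM was summed per gene. log2(FPKM + 1) was fitted with limma 3.58.1 in R 4.3.3, with an intensity trend in the prior, 2 libraries per group, no covariate, two-sided tests and Benjamini-Hochberg adjustment over 6315 genes. Values were compared as deposited. On this scale the change of low genes is understated. The script was tested on simulated data. Sums, shares and ratios between copies were given as values per library. No model was fitted to them, and a permutation test of 2 against 2 libraries, which cannot reach a p under 0.05, was not run.

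Gene names, introns, proteins and promoter sequences are RefSeq's for ASM294v3, read with its own coordinates. All 138 members matched. Gene coordinates in the text are those of the files, and transcript ends differ from RefSeq's for nearly all members, whereas all 86 member introns are identical. In all, 6746 identifiers matched. Promoters are those of 5113 protein-coding genes. The members and lists were chosen with earlier results of these data known. Of 255 entries in 12 related lists, 21 found no gene and 8 were left out, after values were seen, because RefSeq gives the name to another function or another list holds the gene.

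Named members were those called, the 6 highest and 4 lowest in level, the 6 largest rises and falls, the copies of the 8 families whose copies differed most and of the 4 families with the highest sums. In each related list they were up to 4 called genes with the smallest p. Alternatives were pseudocounts of 0.1 and 5, other filters, a prior with no trend, 3 rescalings, a replicate block, leaving out each library, and leaving out members with shared or covered sequence, the last added after seeing the data.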

Additional observations from a re-analysis of the deposited data

How the results depend on the processing

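The count of 8 members called lower stayed within 1.5 times under pseudocounts of 0.1 and 5 (7 and 8), a filter at 5 FPKM (10), median-ratio rescaling (6) and without members with shared or covered sequence (8 and 6). It was 0 with no filter on low values, 3 with no trend in the prior, 4 under TPM scaling, 2 after quantile normalization and 0 to 132 when 1 library was left out. A fit without 1 library takes its spread among samples from the complete pair and assumes that the lone library varies like it, so the counts of 71 and 132 without a wild-type library rest on the spread of the labelled deletion pair and the counts of 0 on that of the wild-type pair. The same holds for every count given here with a library left out. The replicate numbers were not taken to pair the libraries, since no label ties them and deviations of same-numbered libraries correlated at -0.01 over all tested genes, although replicate 2 was the higher one in 119 of 138 members in the labelled deletion and in 135 in wild type. A replicate block gave 1 member called lower, and 4 and 7 assembly genes of the small and large subunit called higher. The count called higher, 0, ranged from 0 to 1 when a library was left out. The median fold change of -0.50 was -0.64, -0.22 and -0.18 after median-ratio rescaling, TPM scaling and quantile normalization, and -0.63 to -0.35 when a library was left out. Relative to the median of all tested genes, -0.63 became -0.64, -0.61 and -0.16 under the 3 rescalings.

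Summed FPKM in the labelled deletion, 68.7%, 68.9% and 68.5% of wild type for all, large and small subunit genes, was 83.5%, 83.7% and 83.2% under TPM scaling and 91.6%, 91.3% and 92.0% after quantile normalization. Leaving out a library gave 61.9% to 77.2%, 62.0% to 77.6% and 61.9% to 76.7%.

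The assembly genes called higher, 10 for the small and 15 for the large subunit, were 6 and 5 with no filter, 3 and 8 with no trend, 4 and 7 after median-ratio rescaling, 24 and 30 under TPM scaling, 0 and 7 after quantile normalization, and 0 to 29 and 0 to 35 when a library was left out. Those called lower, 0 in both, were 0 to 2 and 0 to 1.

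Of all 138 members, 0, 9 and 12 were above 0 after median-ratio rescaling, TPM scaling and quantile normalization, against 2 as deposited. Among the named members those that turned in sign, none of them called with all libraries and deposited values, are as follows. After median-ratio rescaling rpl102 was at -0.124 and rpl3402 at -0.0487. Under TPM scaling rpl2502 was at 0.0708, rpl3002 at 0.17, rpl35A02 at 0.10, rps1401 at 0.0942 and rps2601 at 0.18. After quantile normalization rpl102 was at -0.017, rpl3402 at -0.0479, rpl29 at 0.27, rpl35A02 at 0.15, rpl4101 at 0.23, rpl4102 at 0.33, rps21 at 0.041, rps2502 at 0.26, rps2601 at 0.0479 and rps2801 at 0.0841. With a library left out, rpl102 ranged from -0.0424 to 0.0776, rpl3402 from -0.0204 to 0.2063, rps2601 up to 0.0431, and rps1401 from -1.4762 to 1.1231 (0.13 without labelled deletion replicate 1). The cause was not tested.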
